A study of Mus musculus with 6 samples.

Results

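Nuclear receptors are transcription factors that bind hormones, sterols, bile acids, fatty acids or drugs, or no known ligand, and switch between partner proteins that activate and partner proteins that repress. The genes described here are the nuclear receptors, p160 coactivators and corepressor or chromatin partners that SHP is known to meet or that act beside it. They were chosen by name, and a gene counted as a member when its reads summed to at least 10 over the 6 libraries. Of 36 listed genes, 35 met this rule, out of 23284 genes in the count files. Rora, a retinoid-related orphan receptor, had 1 count in all and fell outside, whereas Rarb with 48 and Nr4a2 with 75 counts were the members nearest to the limit on its inner side.

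The libraries came from intestine, with jejunum and ileum named together, of male mice aged 8 weeks. One group was wild-type (WT) and the other was SHP-KO, with 3 libraries each, and all mice of both groups had been fasted overnight and then refed for 6 h. The labels name neither a strain nor the tissues the deletion covers, and they leave unstated if each library is 1 animal. The p-values therefore describe the variation among these 6 libraries and nothing wider, and part or all of that variation may be technical.

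SHP, the small heterodimer partner encoded by Nr0b2, is a nuclear receptor that has a ligand-binding domain and no DNA-binding domain. It docks on the surface through which active receptors bind coactivators, and it brings histone deacetylases, methyltransferases, demethylases and remodelling enzymes to the receptor. Receptors repressed in this way include LRH-1 (Nr5a2), HNF4-alpha and the retinoid X receptor partners, which in the gut direct lipid, bile acid and drug handling. LRH-1 in turn activates Nr0b2, so that receptor and repressor form a loop.

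Total counts ran from 7956528 to 13511800 per library. Counts of libraries of one genotype differed by only 1.33 to 1.97 times the variance that read sampling alone gives, and the estimated biological coefficient of variation (CV) was 0.0297. Nr0b2, the targeted gene, had 31, 14 and 23 counts in the WT libraries against 1, 0 and 0 in the SHP-KO libraries. Values of single libraries are always given in the order of replicates 1 to 3. Scaled to library size, the ratio of its summed counts was 45.6 (exact 95% interval 7.92 to 1829, counting error only). Cell type and segment markers differed between the same libraries, and their values stand beside the results below. In such whole-tissue samples, fewer cells of a type and less RNA per cell cannot be told apart.

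Most members differed between the genotypes, with more of them lower than higher in SHP-KO. Of 34 members that passed the filter on low counts, 10 rose and 17 fell at an adjusted p under 0.05 in edgeR's quasi-likelihood test, and 7 did not pass. This test is sensitive in these libraries: among all 12106 genes tested, 35.2% were called higher and 35.4% lower, or 70.6% in either direction. Members were called in 79.4% of cases, near the level of all genes. Their median log2 fold change was -0.21, against -0.01 over all genes, and their median absolute log2 fold change was 0.44, against 0.42. CPM values (read counts scaled to library size with TMM factors) of WT and SHP-KO libraries did not overlap for 29 of 34 members, where 72% of all genes showed the same. Of the 34 tested members, 3 were called and changed by 2-fold or more: Nr1i3 rose, and Nr5a2 and Nr2f2 fell. Over all genes, 11.9% were called and at least 2-fold higher and 8.15% at least 2-fold lower.

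With an exact test that assumes a CV of 0.2 in place of the small estimated spread, 4 members were higher and 6 lower, beside 17.9% and 15.5% of all genes (33.4% either way). Nr1i3, Nr6a1, Gps2 and Hdac3 kept a higher call under that assumption, and Nr5a2, Nr2f2, Rarg, Hdac1, Hnf4a and Nr2c2 a lower one. The other 17 calls were lost. The authors' deposited table, which holds all 35 members, gives 5 of them as higher and 6 as lower at an adjusted p under 0.05, beside 19% and 15.6% of its 12939 genes. Its values lie close to those of the exact test with the assumed CV (Hnf4a at log2 -0.73 and -0.71). Its calls are therefore not independent of that test. When scaling rested on enterocyte genes, the median log2 fold change of all genes shifted by -0.12, the share of calls that were higher went from 49.9% to 39.4%, and 8 members were higher and 20 lower.

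**Figure D1:**
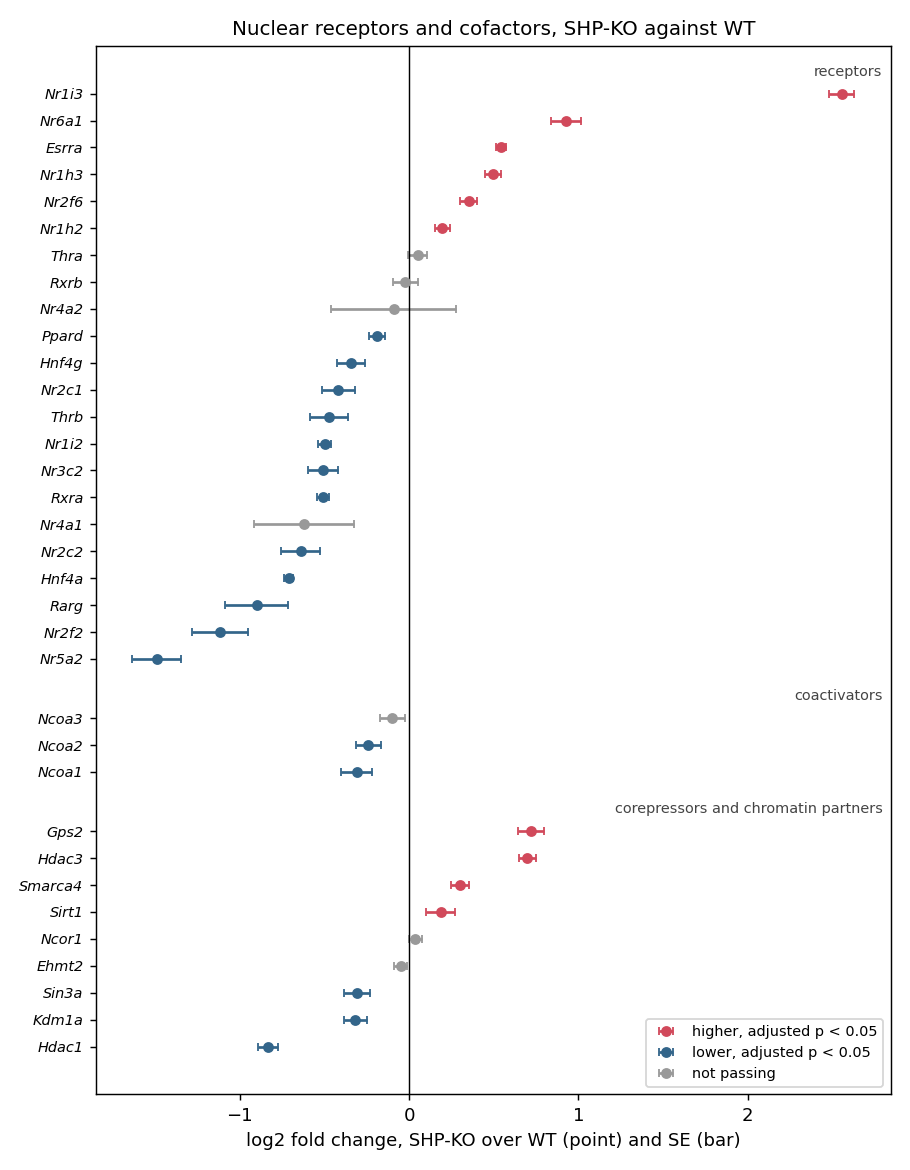
Log2 fold change of SHP-KO over WT for the 34 tested members, grouped by role, with points for the estimate, bars for its standard error and colour for the call in edgeR's quasi-likelihood test. Nr1i3 stands apart at 2.55, and Nr5a2 is lowest at -1.49.

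Levels of different genes were compared only per kilobase of exon, leaving out exon bases shared with another gene. On this scale the estrogen-related receptor Esrra and Hnf4a led the receptors in WT, at 186 ± 0.832 and 186 ± 3.07 CPM per kilobase (SD, n = 3), which did not differ beyond their spread. Hnf4g, Nr1i2, Nr1h2, Rxra and Nr1h3 followed, between 75.2 and 39.7, and of these neighbours only Rxra and Nr1h3 overlapped. In SHP-KO the order changed. Esrra stood alone at 271 ± 5.71, Hnf4a was second at 113 ± 0.996, and Nr1i3 moved from place 18 of all members to place 3 with 61.7 ± 1.80. Hnf4g, at 59.5 ± 1.57, overlapped with Nr1i3 there. At the other end, Rarb, Nr4a2 and Nr4a1 stayed under 1 CPM per kilobase in every library. The summed level of the 23 receptors was 773.9 to 788.6 in WT and 812.6 to 831.2 in SHP-KO, a small rise without overlap. Of the 22 tested receptors, however, 12 fell and 6 rose, with Esrra and Nr1i3 among the latter. The rise also rests on TMM scaling. Scaling on enterocyte genes shifted the log2 values of all genes by a median of -0.12, and the sum was not computed on that scale. Hnf4a made up 23.5 to 23.9% of that sum in WT and 13.8 to 13.9% in SHP-KO.

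**Figure D2:**
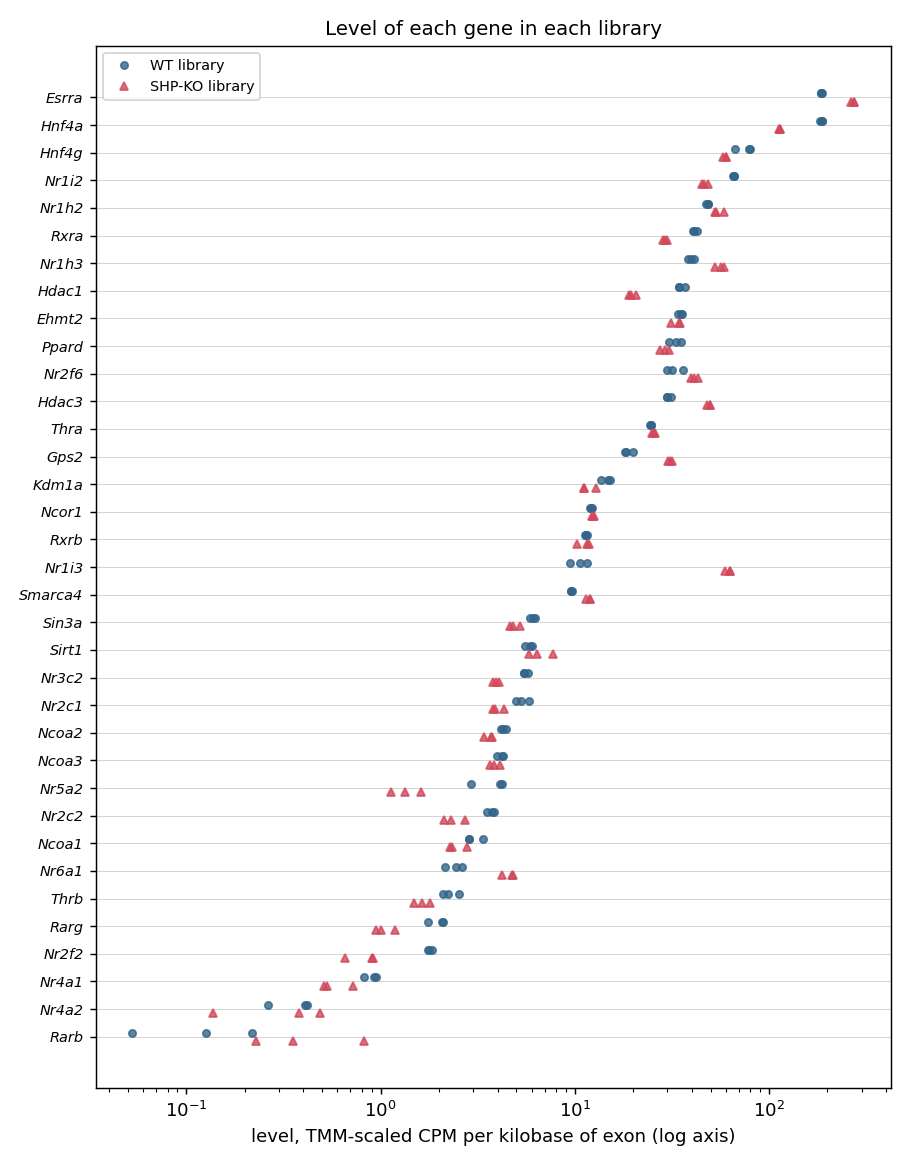
Level of each of the 35 members in each library, in TMM-scaled CPM per kilobase of exon on a log axis, ordered by the WT mean, with circles for the 3 WT and triangles for the 3 SHP-KO libraries. Nr1i3 is the widest gap between circles and triangles, at 10.5 ± 1.05 in WT and 61.7 ± 1.80 in SHP-KO (mean ± SD).

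Among the xenobiotic receptors, which pair with RXR and switch on drug-metabolising enzymes, CAR rose and PXR fell. Nr1i3, the gene of CAR, had 13.3, 12.3 and 10.9 CPM in the WT libraries, against 68.98, 72.5 and 72.6 in the SHP-KO libraries. The groups were far apart (log2 fold change 2.55, SE 0.075, adjusted p 6.0e-49, edgeR, 5.87-fold). Nr1i2, the gene of PXR, had 167, 167 and 165 CPM in the WT libraries, against 122, 116 and 114 in the SHP-KO libraries. All SHP-KO libraries lay below all WT libraries (log2 fold change -0.50, SE 0.039, adjusted p 1.8e-20, edgeR), but the adjusted p was 0.096 with the assumed CV of 0.2. Nr1i3 lies in mm9 on chromosome 1, 173144101 to 173148976, and 257 of its 1414 exon bases are shared with exons of Tomm40l, a gene of a mitochondrial import protein on the opposite strand. Reads that touch exons of both genes were left out by the defaults of the counting tool. Counting ignored strand, so reads of the one gene that lie only in unshared exon bases of the other cannot be told apart. Tomm40l itself had 12.2 ± 0.462 CPM (WT) against 53.1 ± 5.72 (SHP-KO) (SD, n = 3, log2 fold change 2.12, SE 0.081, adjusted p 1.2e-40, edgeR), and its part in the count of Nr1i3 was not tested.

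Both LXR genes, whose proteins sense oxysterols and drive sterol export, were higher. Nr1h3 (LXR-alpha) had 77.6, 80.7 and 84.05 CPM in the WT libraries, against 119.8, 115 and 107 in the SHP-KO libraries, with no overlap (log2 fold change 0.49, SE 0.046, adjusted p 1.2e-16, edgeR). Nr1h2 (LXR-beta) had 92.8, 95.04 and 94.9 CPM in the WT libraries, against 105, 115 and 103 in the SHP-KO libraries. Its gap was smaller (log2 fold change 0.20, SE 0.045, adjusted p 8.0e-05, edgeR). Neither call held with the assumed CV of 0.2 (adjusted p 0.099 and 0.59), and with scaling on enterocyte genes Nr1h2 did not pass (log2 0.07, adjusted p 0.16). Ppard, the gene of the fatty acid sensor PPAR-delta, had 107, 114 and 98.3 CPM in the WT libraries, against 93.7, 97.8 and 88.5 in the SHP-KO libraries, slightly lower in each SHP-KO library than in any WT library (log2 fold change -0.19, SE 0.047, adjusted p 3.0e-04, edgeR, and 0.59 with the assumed CV).

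RXR is the shared partner of CAR, PXR, LXR, PPAR, thyroid and retinoic acid receptors. Rxra had 214, 224 and 217 CPM in the WT libraries, against 157, 154 and 149.9 in the SHP-KO libraries. Every SHP-KO value was below every WT value (log2 fold change -0.51, SE 0.036, adjusted p 5.0e-23, edgeR, and 0.086 with the assumed CV). Rxrb had 31.1, 32.1 and 31.4 CPM in the WT libraries, against 31.9, 28.5 and 32.8 in the SHP-KO libraries, and the groups overlapped (log2 fold change -0.02, SE 0.073, adjusted p 0.79, edgeR). Its direction turned without SHP-KO replicate 2 (log2 0.03).

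Nr5a2 showed the largest fall of any member. It encodes LRH-1, which in gut epithelium supports crypt renewal and local steroid synthesis, and which SHP represses in liver. Its mm9 position is chromosome 1, 138740161 to 138857025. It had 16.3, 11.3 and 15.9 CPM in the WT libraries, against 6.24, 5.14 and 4.35 in the SHP-KO libraries, a 2.81-fold difference with no overlap (log2 fold change -1.49, SE 0.14, adjusted p 1.8e-15, edgeR). WT replicate 2 was lower than the other WT libraries and still more than SHP-KO replicate 1, the highest of that group. Without any 1 library the log2 fold change stayed between -1.64 and -1.37, and with the assumed CV the adjusted p was 1.1e-06. Of the markers listed for dividing cells, 8 of 8 tested fell in the same libraries, with summed levels of 162 to 172 CPM (WT) against 49.2 to 57.9 (SHP-KO). Their part in the fall of Nr5a2 was not tested.

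The HNF4 genes, whose proteins maintain enterocyte identity and lipid handling, were both lower. Hnf4a had 817, 793 and 815 CPM in the WT libraries, against 494, 499 and 491 in the SHP-KO libraries, tight within each group (log2 fold change -0.71, SE 0.027, adjusted p 6.2e-41, edgeR, 1.64-fold lower, and adjusted p 0.011 with the assumed CV). Hnf4g had 329, 278 and 335 CPM in the WT libraries, against 252, 241 and 252 in the SHP-KO libraries. WT replicate 2 was nearest to the SHP-KO libraries (log2 fold change -0.34, SE 0.082, adjusted p 0.013, edgeR). The call for Hnf4g was lost without SHP-KO replicate 2 (adjusted p 0.056, log2 -0.32) and with the assumed CV (0.29). Of 12 enterocyte markers, 6 rose and 4 fell, with summed levels of 78033 to 80329 CPM (WT) against 85443 to 86779 (SHP-KO).

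Orphan receptors went in both directions. Nr6a1, the germ cell nuclear factor, which represses pluripotency genes, had 13.6, 16.7 and 15.4 CPM in the WT libraries, against 30.2, 26.7 and 29.8 in the SHP-KO libraries. The groups did not overlap (log2 fold change 0.93, SE 0.088, adjusted p 2.7e-16, edgeR, 1.90-fold higher, and 0.0013 with the assumed CV). Esrra, a driver of mitochondrial genes, had 406, 409.8 and 407 CPM in the WT libraries, against 579.7, 603 and 599 in the SHP-KO libraries, again without overlap (log2 fold change 0.54, SE 0.028, adjusted p 1.3e-31, edgeR, and 0.063 with the assumed CV). It shares 50 of its 2242 exon bases with Trmt112, which did not pass (log2 0.12). Nr2f6, a COUP-TF relative known from T cells, rose by log2 0.35 (72.01 ± 7.17 CPM (WT) against 91.97 ± 3.80 (SHP-KO), SD, n = 3).

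Nr2f2, the gene of COUP-TFII, is known from mesenchyme, veins and lymphatic vessels, and lies in mm9 on chromosome 7, 77496836 to 77511632. It had 8.91, 8.50 and 8.62 CPM in the WT libraries, against 4.45, 4.38 and 3.21 in the SHP-KO libraries, 2.17-fold lower in SHP-KO with no overlap (log2 fold change -1.11, SE 0.16, adjusted p 4.7e-09, edgeR, and 6.9e-04 with the assumed CV). In the same libraries, 9 of 11 fibroblast and matrix genes and 17 of 17 smooth muscle genes rose. Of 6 endothelial markers, 3 rose and 1 fell, and the part of these cells in the value of Nr2f2 was not tested. Nr2c1 and Nr2c2, which encode the related TR2 and TR4, fell by 0.42 and 0.64 on the log2 scale, with adjusted p of 0.21 and 0.047 under the assumed CV. Nr2c2 shares 3536 of its 7620 exon bases with Mrps25, a mitochondrial ribosomal protein gene on the opposite strand that did not pass (log2 0.16, adjusted p 0.068, edgeR).

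Tested receptors for thyroid hormone, retinoic acid and aldosterone were lower or did not pass. Thra was nearly level at 55.4 ± 0.352 CPM (WT) against 57.4 ± 0.869 (SHP-KO) (log2 fold change 0.05, SE 0.058, adjusted p 0.44, edgeR), and its sign turned with scaling on enterocyte genes (log2 -0.07) and without a filter on low counts. Thrb had 13.7, 16.6 and 14.7 CPM in the WT libraries, against 11.8, 10.7 and 9.74 in the SHP-KO libraries, with no overlap (log2 fold change -0.47, SE 0.11, adjusted p 1.7e-04, edgeR, and 0.16 with the assumed CV). Rarg, a retinoic acid receptor of epithelia, had 5.62, 6.66 and 6.73 CPM in the WT libraries, against 3.05, 3.83 and 3.21 in the SHP-KO libraries. It fell 1.87-fold (log2 fold change -0.90, SE 0.18, adjusted p 1.2e-05, edgeR, and 0.0093 with the assumed CV). Rarb, itself induced by retinoic acid, had 2, 4 and 8 counts in WT and 5, 9 and 20 in SHP-KO and was not tested because of its low counts. SHP-KO replicate 3 held most of its SHP-KO reads, and the ratio of summed counts, scaled to library size, was 3.62 (exact 95% interval 1.89 to 7.30, counting error only). The authors' deposited table lists Rarb at log2 1.80 with an adjusted p of 0.0023. Nr3c2, the mineralocorticoid receptor, fell from 22.8 ± 0.627 to 16.04 ± 0.604 CPM (log2 -0.51, and 0.11 with the assumed CV).

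The immediate early receptors Nr4a1 and Nr4a2, induced within minutes by many stimuli, had low counts. Nr4a1 had 28, 26 and 31 counts in WT and 14, 12 and 11 in SHP-KO, or 2.05, 2.28 and 2.34 CPM in the WT libraries, against 1.78, 1.31 and 1.26 in the SHP-KO libraries. These CPM values did not overlap, yet the difference missed the threshold (log2 fold change -0.62, SE 0.29, adjusted p 0.053, edgeR). It passed in 5 of 18 alternative settings. Nr4a2 had 12, 16 and 18 against 10, 15 and 4 counts, and its sign depended on single libraries (log2 -0.51 to 0.29 when 1 was left out).

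The sequences before the start sites of these genes were read for elements that nuclear receptors bind, because the receptors regulate one another. RefSeq start sites (GRCm38.p6) were found for 30 of the 36 listed genes, as 41 windows of 250 bases. The core element AGGTCA, on either strand, was in 6 of these windows (14.6%) and in 14.02% of all 32851 windows, so members were close to the level of all genes. The 6 genes were Nr5a2, Rarg, Rxra, Thrb and Kdm1a, which fell, and Nr6a1, which rose. An extended element that LRH-1 binds (CAAGGNCA), an HNF4 element (CAAAGTCCA), and direct repeats AGGTCANAGGTCA and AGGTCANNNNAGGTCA were in none of the member windows, and in 5.53%, 0.38%, 0.033% and 0.015% of all windows. The core element is part of both direct repeats. Shown are the 3 tested members called at 2-fold or more, both members with a pair of core elements, and Nr0b2, whose window holds the extended element, with matches in capitals (TGACCT is AGGTCA on the other strand). A match is a run of letters and not a measured binding site. Nr5a2, Nr6a1 and Rxra have 2 windows each. The window with a match is shown, and its start site need not be the main one of the gene.
Nr1i3 (chr1:171213850-171213969, plus strand, no match): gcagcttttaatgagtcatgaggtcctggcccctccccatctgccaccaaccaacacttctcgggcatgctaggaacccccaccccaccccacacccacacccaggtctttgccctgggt
Nr5a2 (chr1:136960465-136960554, minus strand, match from 64 bases before the start): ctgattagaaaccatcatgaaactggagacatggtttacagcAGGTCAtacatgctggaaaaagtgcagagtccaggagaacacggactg
Nr2f2 (chr7:70366747-70366866, minus strand, no match): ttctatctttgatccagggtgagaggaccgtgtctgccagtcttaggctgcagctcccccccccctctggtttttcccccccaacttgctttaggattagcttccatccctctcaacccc
Nr6a1 (chr2:38784516-38784648, minus strand, matches from 91 and 45 bases before the start): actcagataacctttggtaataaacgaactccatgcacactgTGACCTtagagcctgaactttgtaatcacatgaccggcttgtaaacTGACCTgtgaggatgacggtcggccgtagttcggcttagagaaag
Rxra (chr2:27709163-27709291, plus strand, matches from 87 and 48 bases before an inner start): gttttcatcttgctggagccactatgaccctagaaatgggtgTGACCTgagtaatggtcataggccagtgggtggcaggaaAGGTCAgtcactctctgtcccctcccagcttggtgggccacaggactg
Nr0b2 (chr4:133553133-133553224, plus strand, match from 201 bases before the start): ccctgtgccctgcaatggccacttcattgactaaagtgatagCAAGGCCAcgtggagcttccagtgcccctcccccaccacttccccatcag

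The p160 coactivators, which bind active receptors and bring histone acetyltransferases, moved little. Ncoa1 (SRC-1) had 24.8, 20.95 and 21.01 CPM in the WT libraries, against 20.5, 17.2 and 16.6 in the SHP-KO libraries, and SHP-KO replicate 1 came close to the lowest WT library (log2 fold change -0.31, SE 0.092, adjusted p 0.0021, edgeR). Ncoa2 had 36.3, 34.2 and 34.9 CPM in the WT libraries, against 30.9, 30.4 and 28.1 in the SHP-KO libraries (log2 fold change -0.24, SE 0.072, adjusted p 0.0024, edgeR). Ncoa3 overlapped between groups at 31.3 ± 1.27 CPM (WT) against 29.2 ± 1.85 (SHP-KO) (log2 fold change -0.10, SE 0.074, adjusted p 0.23, edgeR). Ncoa1 and Ncoa2 thus fell and Ncoa3 did not pass, but neither call held with the assumed CV (adjusted p 0.39 and 0.5), and Ncoa3 passed with scaling on enterocyte genes (adjusted p 0.0073).

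Of the NCoR complex, Gps2 and Hdac3 rose and the scaffold Ncor1 did not pass. Gps2, a subunit that SHP also binds, had 22.1, 24.2 and 22.4 CPM in the WT libraries, against 36.7, 37.6 and 38.7 in the SHP-KO libraries. Hdac3, the deacetylase of the complex, had 59.7, 62.7 and 59.7 CPM in the WT libraries, against 100.0, 99.4 and 95.7 in the SHP-KO libraries. Both rose without overlap of the groups, Gps2 1.65-fold (log2 fold change 0.72, SE 0.074, adjusted p 1.3e-14, edgeR) and Hdac3 1.62-fold (log2 fold change 0.70, SE 0.049, adjusted p 6.2e-23, edgeR), and both calls held with the assumed CV (adjusted p 0.014 and 0.015). Ncor1, the scaffold, did not pass at 135 ± 0.879 CPM (WT) against 138 ± 1.80 (SHP-KO) (log2 fold change 0.04, SE 0.039, adjusted p 0.4, edgeR). It shares 16 of its 11144 exon bases with Ttc19 (log2 0.42, adjusted p 6.7e-07, edgeR). The log2 value of Ncor1 turned to -0.09 with scaling on enterocyte genes, and also turned without scaling factors and without a filter on low counts.

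Hdac1 (mm9 chromosome 4, 129193348 to 129219890) went the opposite way to Hdac3. This deacetylase of the SIN3, NuRD and CoREST complexes had 67.6, 72.7 and 68.2 CPM in the WT libraries, against 38.4, 40.9 and 37.5 in the SHP-KO libraries, 1.78-fold lower in SHP-KO (log2 fold change -0.83, SE 0.061, adjusted p 3.2e-22, edgeR, and 0.003 with the assumed CV). Sin3a, the scaffold of the SIN3 complex, fell by 0.31 on the log2 scale, and Kdm1a, the histone demethylase LSD1, by 0.32. Neither passed with the assumed CV (0.37 and 0.35). In the same libraries all 8 dividing cell markers fell, and their part in these falls was not tested.

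The other chromatin partners moved little. Smarca4, the BRG1 motor of SWI/SNF remodelling, had 61.2, 61.02 and 61.4 CPM in the WT libraries, against 73.2, 76.02 and 76.7 in the SHP-KO libraries (log2 fold change 0.30, SE 0.053, adjusted p 4.9e-07, edgeR, and 0.37 with the assumed CV). Ehmt2, the G9a methyltransferase that SHP recruits, did not pass at 141 ± 3.55 CPM (WT) against 136 ± 8.49 (SHP-KO) (log2 fold change -0.05, SE 0.04, adjusted p 0.26, edgeR), though it passed as lower in 3 of 18 alternative settings. Sirt1, a deacetylase that binds several receptors, had 23.6, 21.6 and 22.98 CPM in the WT libraries, against 30.3, 22.8 and 25.1 in the SHP-KO libraries. The groups overlapped, with SHP-KO replicate 1 the highest library (log2 fold change 0.19, SE 0.085, adjusted p 0.044, edgeR), and the call was lost in 12 of 18 alternative settings, among them leaving out SHP-KO replicate 1 (log2 0.07, adjusted p 0.53).

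The share of each member in its family was computed per kilobase of exon in each library. Only listed members entered these sums, and Hdac1 and Hdac3 were paired although the complexes named for them above differ. CAR went from 13.8% ± 1.11 in WT to 57.00% ± 1.54 in SHP-KO of the summed CAR and PXR level, a shift of 43.2 percentage points. Hdac3 went from 46.2% ± 0.313 in WT to 71.3% ± 0.725 in SHP-KO of the Hdac1 and Hdac3 sum. Smaller shifts without overlap were Hnf4g from 28.8% ± 1.76 in WT to 34.4% ± 0.780 in SHP-KO of HNF4, Nr1h3 from 45.2% ± 0.744 in WT to 50.5% ± 1.80 in SHP-KO of LXR, and Rxrb from 21.6% ± 0.117 in WT to 27.8% ± 1.63 in SHP-KO of RXR. Thrb and Nr2f2 gave up 2.43 and 3.28 percentage points to Thra and Nr2f6. Shares overlapped for Nr2c1 with Nr2c2. Among the p160 genes, the shares of Ncoa1 and Ncoa3 overlapped, and that of Ncoa2 did not, at 36.8 to 37.6% in WT against 36.2 to 36.6% in SHP-KO (exact permutation p 0.10). The adjusted values use Ncoa1 for that family (exact permutation p 0.40). Each of the other 7 families gave p = 0.10 in a two-sided exact permutation test, the smallest that 3 against 3 allows, and an adjusted p of 0.13 over the 9 families compared.

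**Figure D3:**
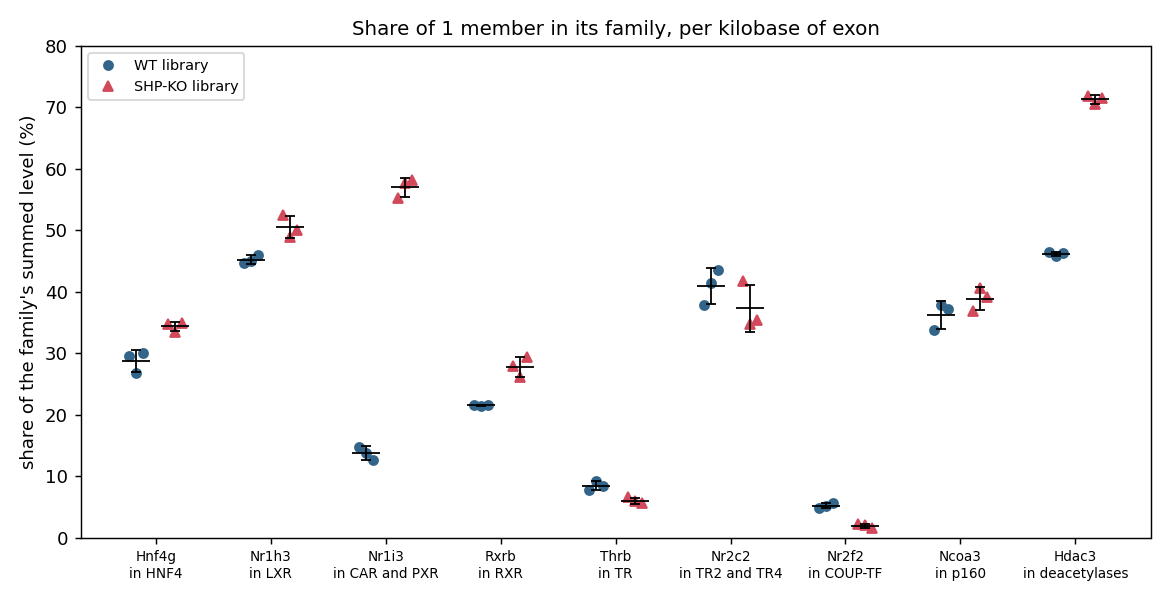
Share of 1 gene in the summed level of its family (percent, per kilobase of exon) in each library, with circles for WT, triangles for SHP-KO, and bars for the mean ± SD of 3 libraries. Nr1i3 and Hdac3 show the widest gaps between genotypes, and the points of Nr2c2 and Ncoa3 overlap.

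Among 25 other nuclear receptors, listed as the rest of the family and read from the same fit, 10 were abundant enough to test. Of these, 3 rose, 6 fell and 1 did not pass, the falls including Nr0b2, the deleted gene. Among all genes tested, 35.2% were called higher and 35.4% lower. Nr1d1, the clock repressor REV-ERB-alpha, Nr1d2, its relative, and Pparg rose by log2 0.76, 0.19 and 0.43. Nr1h4, the bile acid receptor FXR, had 109.7, 105 and 104 CPM in the WT libraries, against 30.03, 27.02 and 28.5 in the SHP-KO libraries and fell by 1.90 on the log2 scale. The glucocorticoid receptor Nr3c1 fell by 0.78.

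Partners of the cofactors were mixed in direction. Of other NCoR complex subunits, Coro2a rose (log2 0.18) and Tbl1x fell (-0.75). The counts that follow stand beside 35.2% higher and 35.4% lower among all genes tested. Of 14 SIN3 complex subunits, 2 rose, 8 fell and 4 did not pass, with the histone chaperones Rbbp4 and Rbbp7 at log2 -0.60 and -0.74 and Brms1 at 0.49. The CoREST list gave 4 higher and 3 lower of 8, with Phf21a at log2 0.85 and Hmg20b at 0.23. Around Ehmt2, 1 of 4 rose (Wiz, log2 0.33) and 1 fell (Zfp644, -0.78). Of 18 SWI/SNF subunits, 7 rose, 6 fell and 5 did not pass, with Arid1a at log2 0.66 and Smarcb1 at 0.65. Smarcd3, a subunit of muscle, was at log2 2.05 from 27 counts in WT, beside the smooth muscle markers. Around the p160 coactivators, 6 rose, 5 fell and 5 did not pass of 16, with Ppargc1a, a partner of ERR-alpha, at log2 0.75, Med12 at 0.77 and Ncoa4 at -0.82. Further deacetylases gave 3 higher and 2 lower of 8, with Sirt7 at log2 0.66. Other corepressors gave 2 higher and 3 lower of 6, with Ctbp1 at 0.24 and Cops2 at -0.41.

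Genes that textbooks name as targets went in both directions for most of these receptors. The counts of targets, and of the markers after them, stand beside 35.2% higher and 35.4% lower among all genes tested. Beside the rise of CAR and the fall of PXR, 4 rose, 5 fell and 5 did not pass of 14 shared targets, with Cyp2b10, the classical CAR target, at 85.6 ± 3.62 CPM (WT) against 334 ± 3.77 (SHP-KO) and Ces2a at log2 -1.73. Beside the higher LXR genes, 2 of 11 LXR targets rose and 6 fell, the latter including Scd1 and Scd2 at log2 -1.84 and -3.50, and the former Abcg5, a sterol exporter gene, at 0.59. Beside the lower HNF4 genes, 10 of 16 HNF4 targets rose and 5 fell, with Apoc3 at log2 3.05. The largest rise of these targets was that of Fabp1 (log2 4.11), which is also a proximal small intestine marker. Of 5 tested LRH-1 targets, 3 fell and 1 rose. One of the 3 is Nr0b2, the deleted gene, whose fall says nothing of LRH-1, and the others are Ccne1 (log2 -1.85) and Ccnd1 (-0.60), cyclin genes of dividing cells. Scarb1, a lipoprotein receptor gene, rose (log2 1.18), and the steroid enzyme genes Cyp11a1 and Cyp11b1 had 4 and 0 counts in all.

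PPAR targets gave 4 higher and 7 lower of 13, with Fabp1, a fatty acid binding protein gene, at log2 4.11 and Angptl4 at -1.13. Their sum was 3082 to 3143 CPM (WT) against 4682 to 4755 (SHP-KO), although their median log2 fold change was -0.44. Fabp1 is also on the list of proximal small intestine markers. ERR targets gave 4 higher, Esrra itself included, and 4 lower of 9, with Acadm at -0.44. Thyroid hormone targets gave 2 higher and 2 lower of 6, with Klf9 at -1.01 and Bcl3 at 0.70, and retinoic acid targets 2 and 2 of 6, with Isx at -1.03. Targets that the mineralocorticoid receptor shares with the glucocorticoid receptor were lower beside both receptors: 4 of 5 fell, Sgk1 from 1208 ± 28.7 to 139.9 ± 6.43 CPM, Fkbp5 and Tsc22d3 by 4.86 and 1.64 on the log2 scale, and Scnn1a rose. The 5 tested FXR targets all fell beside Nr1h4, and 4 of these, Fabp6, Osta, Ostb and Fgf15, are also ileum markers.

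Markers of segment and of other cell types moved with the genotype in these libraries. Proximal small intestine markers gave 10 higher and 1 lower of 11, with sums of 6369.5 to 6463 CPM (WT) against 28261 to 28550.4 (SHP-KO). Ileum markers gave 4 higher and 8 lower of 12, with sums of 21973 to 22444 CPM (WT) against 6071 to 6257 (SHP-KO). Smooth muscle sums were 2443 to 2483 CPM (WT) against 4238 to 4341 (SHP-KO), fibroblast and matrix sums 151 to 169 CPM (WT) against 356 to 365 (SHP-KO), and adipocyte sums 239 to 258 CPM (WT) against 366 to 387 (SHP-KO). Enteric neuron and glia sums were 16.3 to 18.9 CPM (WT) against 47.7 to 52.4 (SHP-KO), with 6 of 7 markers higher. Goblet cell markers were 8 higher and 0 lower of 8, enteroendocrine 9 higher and 1 lower of 10, Paneth cell 0 higher and 5 lower of 7, and macrophage and dendritic cell 3 higher and 1 lower of 6. The macrophage and dendritic cell sum was lower, at 90.7 to 93.3 CPM (WT) against 43.5 to 45.8 (SHP-KO), and Lyz2, its most abundant gene in WT, fell by 2.56 on the log2 scale. T cell markers were 8 higher and 0 lower of 9. All 10 B cell markers fell, with sums of 90.3 to 98.1 CPM (WT) against 1.49 to 2.55 (SHP-KO), with Cr2, Fcer2a and Faim3 at 0 in SHP-KO. The part of these markers in the receptor and cofactor differences was not tested, and a different share of jejunum and ileum in the groups cannot be told apart from SHP loss.

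**Figure D4:**
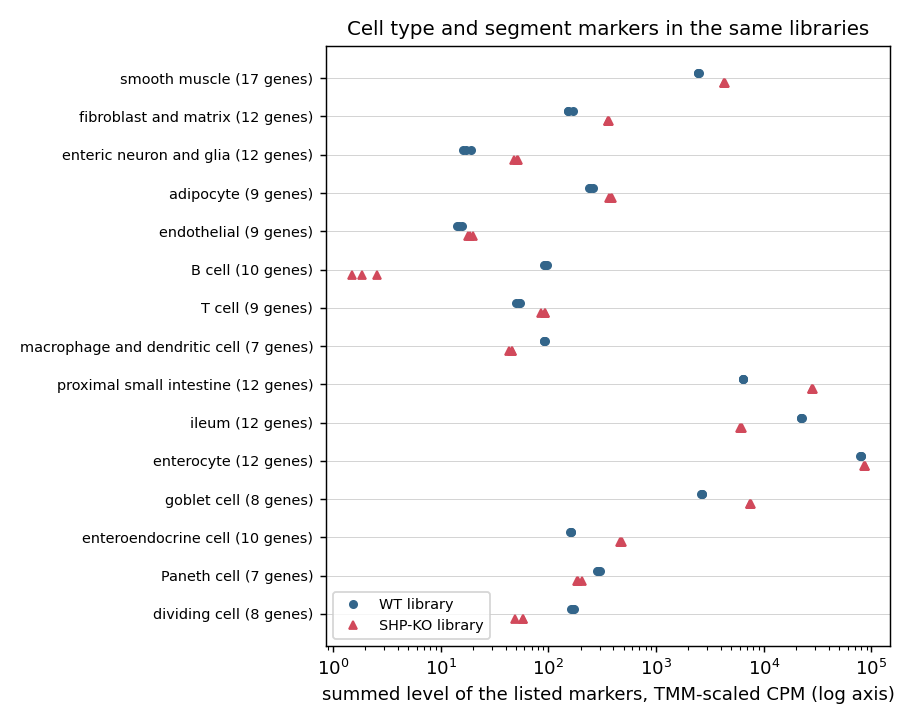
Summed TMM-scaled CPM (log axis) of the listed markers of each cell type or segment, with circles for the 3 WT and triangles for the 3 SHP-KO libraries. The proximal sum is higher and the ileum, B cell and dividing cell sums are lower in all SHP-KO libraries, though single proximal and ileum markers go both ways. Enterocyte sums differ less, at 78033 to 80329 CPM (WT) against 85443 to 86779 (SHP-KO).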

How the data were processed

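Intestinal RNA of 3 WT and 3 SHP-KO libraries was sequenced on an Illumina instrument, per the labels' protocols. STAR 2.6.0c, Trimmomatic 0.38, bcl2fastq 2.17.1.14, FastQC 0.11.5 and edgeR are tools, and mm9 the build, in the submitters' processing notes. The authors deposited whole-number counts per gene, made with featureCounts 1.5.2 over exons without strand, per the file headers, so reads of antisense genes cannot be told apart, and reads with several alignments or genes were left out by that tool's defaults. The authors' deposited table holds log2 fold changes, log2 CPM, p-values and adjusted p-values.

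Genes passing filterByExpr (minimum count 10, 12106 genes) were scaled by TMM and tested with edgeR 4.0.16 (quasi-likelihood, robust) in R 4.3.3, with Benjamini-Hochberg adjustment over all tested genes and a threshold of 0.05. Standard errors came from that fit, and the script was tested on simulated data. DESeq2 1.42.0 and limma 3.58.1 (voom), other scalings and filters, exact tests and leaving out libraries were alternatives, 2 of them added after the data were seen. Members and gene lists were chosen with earlier results of these data known. All members were named; from each other list at most 3 genes with the smallest p among those past the threshold, and 3 other receptors per direction, except Scarb1, Scnn1a, Fgf15, Cyp11a1, Cyp11b1, Cr2, Fcer2a and Faim3, picked after their values were seen. Gene positions are in mm9, promoters in GRCm38.p6. Some genes of these lists are not reported here. Intervals cover counting error only. Figures used matplotlib 3.10.9.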

Additional observations from a re-analysis of the deposited data

How the results depend on the processing

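0 of the members' log2 fold changes turned sign with a call. The exact test with an assumed CV of 0.2 called 4041 genes, 4 members higher, 6 members lower and 61 other pathway genes, against 8543, 10, 17 and 133 in the quasi-likelihood test. With an assumed CV of 0.4, added after the data were seen, it called 1342, 1, 1 and 25, the members being Nr1i3 and Nr5a2. DESeq2, limma-voom, the exact test at the estimated CV, other scalings, other filters and the fit without robust estimation gave 8 to 10 members higher and 17 to 20 lower. Leaving out 1 library gave 9 to 10 higher and 16 to 18 lower, and 8260 to 8407 genes. Replicate numbers are shared across genotypes. Deviations from the genotype mean, correlated across genes, gave -0.00542 to 0.0283 for same-numbered libraries and -0.0303 to 0.00983 for the others. Variation within a genotype was near that of read sampling, so these values cannot show if same-numbered libraries were handled together. With the replicate number as a block, 8573 genes, 10 members higher and 17 lower were called, and no member's call changed. Depth limits Rarb, Nr4a1, Nr4a2 and Rora, which had under 130 counts each over all libraries.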
